A study of Homo sapiens with 6 samples.

Results

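DKK1 and the core genes of WNT signalling were followed in MIA PaCa-2 cells, a widely used line from a human pancreatic carcinoma, with and without a knockout of LINC00901, which encodes a long non-coding RNA. The genes considered were 10 of the 18268 rows of the deposited expression table, found by symbol: DKK1, DKK3, LRP5, LRP6, AXIN1, AXIN2, CTNNB1, TCF7L2, LEF1 and APC. DKK1 was chosen by its log2 fold change between the groups compared here, and the other genes were chosen for their place in the pathway with these FPKM values in view. Their differences between the groups are therefore given as descriptions with no p-value.

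Total RNA of 6 cultured-cell samples was sequenced. The LINC00901 KO group held 3 libraries (KO 1 to 3), and the group labelled as vector control, titled LCV2, held 3 (vector control 1 to 3). Both groups were MIA PaCa-2 cells grown in the same serum-supplemented medium, with no further treatment named. The labels do not say how the knockout was made, whether the cells were 1 clone or a pool, or whether the libraries came from separate cultures, so p-values reflect library-to-library spread that could be purely technical.

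WNT proteins are secreted ligands that bind a Frizzled receptor together with the co-receptor LRP5 or LRP6. Without ligand, beta-catenin (encoded by CTNNB1) is marked for degradation by a complex built on AXIN and APC, and with ligand it accumulates and works with the TCF/LEF transcription factors in the nucleus. DKK1 is a secreted antagonist that binds LRP5 and LRP6 and keeps them from the ligand, and it is itself a known target of beta-catenin/TCF in other cells. AXIN2 and LEF1 are other well-known targets, so each also acts as a feedback or feed-forward part of the pathway.

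Values are FPKM, fragments scaled by the authors to transcript length and library size, so levels of different genes can be set side by side. They summed to between 123107 and 134389 per library, and read depth could not be recovered from them. LINC00901 had 0 rows, so the knockout was not checked in these values and each direction rests on the labels. Vector control 1 stood apart from its own group: across the 9624 tested genes it correlated at r = 0.932 with KO 3 but at r = 0.904 with vector control 2, while vector control 2 and 3 correlated at r = 0.979. The KO group was split as well: KO 1 correlated at r = 0.933 with KO 2 and r = 0.935 with KO 3, while KO 2 and KO 3 correlated at r = 0.970. All these figures are correlations across genes, and genes are no independent replicates. Where leaving out vector control 1 moved a member's value or changed the call of a named gene, this is stated. Of the epithelial markers that fit the labelled cell type, KRT18, the joined row KRT8;KRT78 and KRT19 (12.69 to 39.34 FPKM) were present, and CLDN4 ran from 0.54 FPKM in KO 1 to 42.72 FPKM in vector control 2. EPCAM, KRT7 and CDH1 reached at most 0.14, 0.11 and 0.02 FPKM. The leukocyte genes PTPRC and CD3E were listed at 0 throughout.

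The promoter windows of 3 members are shown because they span the range of levels found: DKK1, whose level differed most between the groups, CTNNB1, the most abundant, and LEF1, close to 0 in every library. Each runs from 250 bases before to 50 bases from a start that RefSeq annotates, 300 bases in all, from RefSeq on GRCh38.p14 (the expression values were made on hg19). Capitals mark matches to any of 4 TCF/LEF words on either strand: the word CTTTGAA, the word CTTTGAT, the word CTTTGTA and the word CTTTGTT. The windows are chr10:52314031-52314330 on the plus strand for DKK1, chr3:41199255-41199554 on the plus strand for CTNNB1 and chr4:108166252-108166551 on the minus strand for LEF1. The LEF1 window lies at a start inside the annotated gene, downstream of its outermost start.
DKK1: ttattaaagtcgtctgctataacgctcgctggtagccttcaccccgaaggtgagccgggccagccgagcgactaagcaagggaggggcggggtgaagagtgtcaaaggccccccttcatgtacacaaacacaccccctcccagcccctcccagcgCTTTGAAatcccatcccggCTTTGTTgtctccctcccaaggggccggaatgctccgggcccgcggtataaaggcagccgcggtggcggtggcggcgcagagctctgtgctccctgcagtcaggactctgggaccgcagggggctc
CTNNB1: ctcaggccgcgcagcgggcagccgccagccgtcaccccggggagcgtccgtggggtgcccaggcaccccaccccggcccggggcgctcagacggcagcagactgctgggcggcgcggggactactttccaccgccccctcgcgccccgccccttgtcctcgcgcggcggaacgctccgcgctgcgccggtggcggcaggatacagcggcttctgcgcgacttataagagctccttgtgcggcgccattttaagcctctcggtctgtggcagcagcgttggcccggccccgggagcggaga
LEF1: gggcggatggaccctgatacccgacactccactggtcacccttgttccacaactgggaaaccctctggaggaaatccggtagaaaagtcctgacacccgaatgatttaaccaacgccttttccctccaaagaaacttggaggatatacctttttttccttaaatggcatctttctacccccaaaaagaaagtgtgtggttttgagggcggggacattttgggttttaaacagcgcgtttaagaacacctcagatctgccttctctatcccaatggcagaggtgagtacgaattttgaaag

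The DKK1 window held 2 TCF/LEF words, CTTTGAA beginning 95 bases and CTTTGTT beginning 76 bases before the start. Among all 35116 promoter windows of the same length, 13.8% held at least 1 such word and 1.58% held 2 or more. The windows of CTNNB1 and LEF1 held none, which says nothing of the sequence around other starts. RefSeq windows were matched for 7 of the 10 members, 10 windows in all because TCF7L2 and APC have several starts, and DKK3, LRP6 and AXIN2 had none. A TCF/LEF word was found in 2 of these 10 windows, the other being a TCF7L2 window with CTTTGTT beginning 133 bases before its start. The AP-1 word TGANTCA matched 0 of the 10 windows, against 7.71% of all windows, and TATAAA matched 1, that of DKK1, against 11.5% of all. Both strands were searched, and the matches in the DKK1 window did not overlap. A match is a run of letters and does not show that a factor binds there.

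Of the pathway core, DKK1 was the gene that differed by far the most. DKK1 stood at 0.15, 1.86 and 0.47 FPKM in KO 1 to 3, against 34.06, 15.11 and 14.70 FPKM in vector control 1 to 3. The groups were far apart, with the lowest vector control library 7.90 times the highest KO library. DKK1 averaged 0.827 ± 0.909 FPKM in KO cells and 21.3 ± 11.1 FPKM in vector control cells (SD, n = 3 each), which places the KO mean at 3.88% of the vector control mean. The log2 fold change on the log2(FPKM + 1) scale was -3.61 (SE 0.43). Counted from the lowest log2 fold change, DKK1 ranked 7 among the 9624 tested genes.

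Both groups were uneven in DKK1. Vector control 1 had 2.29 times the mean of vector control 2 and 3, and KO 2 had 12.4 times the value of KO 1. Without vector control 1 the log2 fold change was -3.23, and without KO 2 it was -3.99. Summed epithelial marker levels also lay apart: the summed FPKM of all 7 epithelial markers ran from 74.15 to 97.98 in KO libraries and from 125.89 to 179.28 in vector control libraries, led by KRT18. Summed pancreatic endocrine markers ran from 4.03 to 8.57 FPKM in KO libraries and from 9.62 to 28.49 FPKM in vector control libraries, nearly all from the joined row IGF2;INS;INS-IGF2, with GCG and SST listed at 0. In limma 0 of the 4 tested epithelial markers passed, and this joined row did not pass either (limma adjusted p = 0.137). Of all tested genes 1.35% passed, and 23.8% had groups that did not overlap. The part of the epithelial and endocrine markers in the DKK1 difference was not tested. The summed fibroblast, leukocyte and acinar markers overlapped between the groups, but single fibroblast and leukocyte markers did not. The collagen genes COL1A2 and COL3A1 and the lysozyme gene LYZ are named after their values were seen. COL1A2 stood at 51.58, 56.18 and 50.63 FPKM in KO libraries, against 24.72, 35.84 and 34.30 FPKM in vector control libraries. COL3A1 stood at 41.24, 18.78 and 16.46 FPKM in KO libraries, against 43.10, 61.20 and 62.02 FPKM in vector control libraries. Neither passed in limma, and they differed in opposite directions, so that their sum hid both. LYZ, of the leukocyte list, stood at 1.45, 1.83 and 1.20 FPKM in KO libraries and was listed at 0 in all 3 vector control libraries. It met the filter for testing (at least 1 FPKM in at least 3 libraries) only through the KO libraries. An exact 0 in this table can also be an unmeasured value. Nothing is therefore read from its call (limma adjusted p = 0.00799). The leukocyte and acinar sums came nearly all from the joined rows CD68;EIF4A1;SENP3 and CDC42;CELA3B;CELA3A. The part of these markers in the DKK1 difference was not tested either. The endothelial markers were at 0 in KO libraries and reached at most 0.34 FPKM in sum in vector control libraries. In bulk RNA, fewer cells with DKK1 and less DKK1 RNA per cell cannot be told apart.

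**Figure D1:**
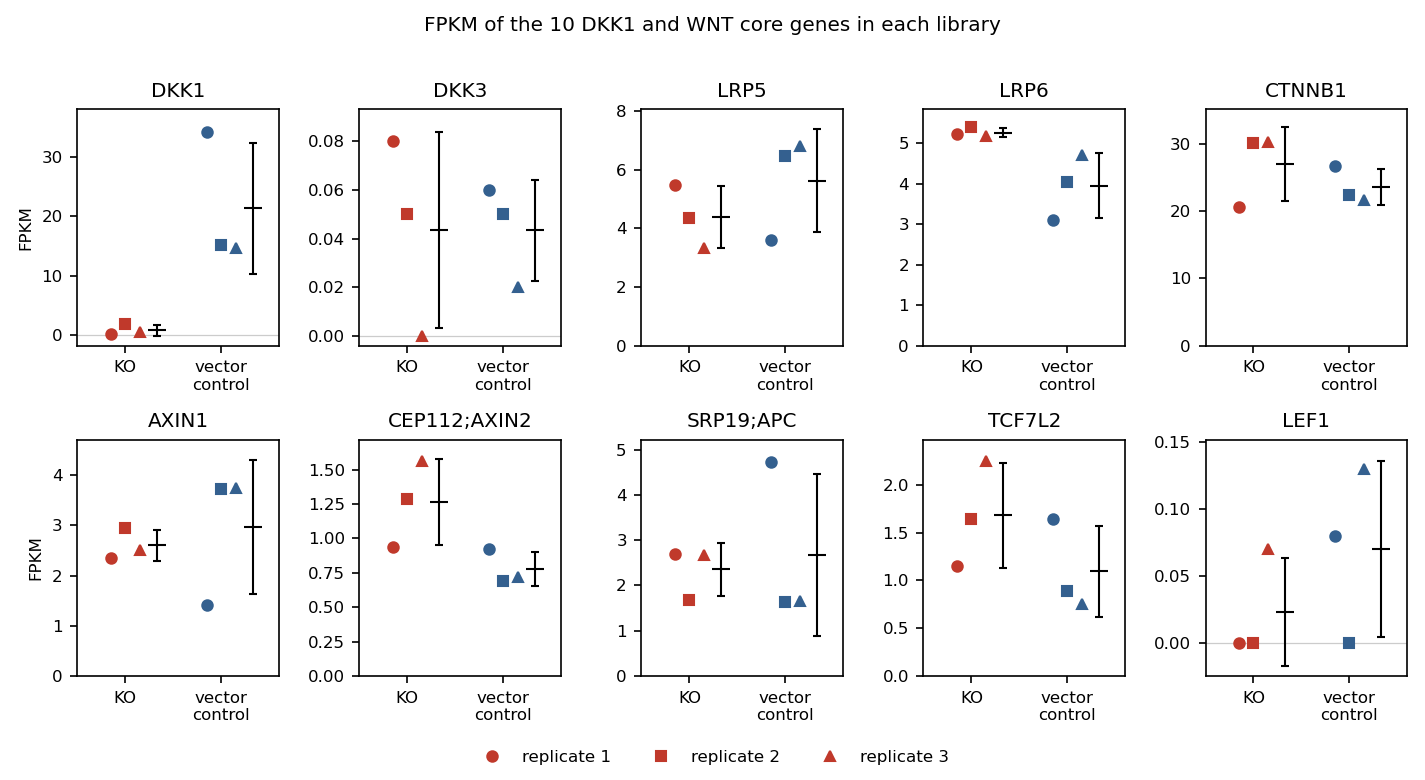
FPKM of each of the 10 genes by library, with KO on the left and vector control on the right of each panel. Marker shapes give the replicate number, black bars give mean ± SD (n = 3), and a joined row carries all its symbols. DKK1 lies at 0.15 to 1.86 FPKM in KO libraries and at 14.70 to 34.06 FPKM in vector control libraries, while DKK3 and LEF1 stay at or below 0.13 FPKM.

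DKK3, a Dickkopf family member that differs from DKK1 in not being an established LRP5/6 antagonist, was close to absent. It stood at 0.08, 0.05 and 0 FPKM in KO 1 to 3, and at 0.06, 0.05 and 0.02 FPKM in vector control 1 to 3. The groups overlapped at values where the table resolves only a few steps of its second decimal. DKK2 and DKK4 reached at most 0.19 and 0.15 FPKM. DKK1 was thus the one Dickkopf antagonist measured above 1 FPKM, and in KO cells only in KO 2.

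The co-receptors to which DKK1 binds were present in all libraries. LRP5 stood at 5.47, 4.34 and 3.34 FPKM in KO libraries, against 3.60, 6.46 and 6.82 FPKM in vector control libraries. The groups overlapped, because vector control 1 lay among the KO values. The log2 fold change of LRP5 was -0.28 (SE 0.26), and -0.52 without vector control 1. LRP6 stood at 5.22, 5.39 and 5.17 FPKM in KO libraries, against 3.11, 4.04 and 4.70 FPKM in vector control libraries. Every KO library lay above every vector control library in LRP6, and the KO values spread over a narrow range. The log2 fold change of LRP6 was 0.35 (SE 0.17), and 0.22 without vector control 1. The 2 co-receptors were thus at similar levels, and their ranges over the 6 libraries overlapped.

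CTNNB1, which encodes the effector beta-catenin, was the most abundant member. It stood at 20.62, 30.14 and 30.24 FPKM in KO 1 to 3, against 26.66, 22.33 and 21.67 FPKM in vector control 1 to 3. KO 1 was the lowest of the 6 libraries and the other KO libraries the highest, so the groups overlapped. CTNNB1 averaged 27.0 ± 5.53 FPKM in KO cells and 23.6 ± 2.71 FPKM in vector control cells (SD, n = 3 each), with a log2 fold change of 0.17 (SE 0.19), and 0.26 without vector control 1. Beta-catenin is controlled largely through degradation of the protein, which RNA values do not show.

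Of the destruction complex, AXIN1, the constitutive scaffold, stood at 2.35, 2.95 and 2.50 FPKM in KO libraries, against 1.42, 3.72 and 3.74 FPKM in vector control libraries. The KO values lay between vector control 1 and the other vector controls. Its log2 fold change was -0.08 (SE 0.28), and between -0.40 (without vector control 1) and 0.09 (without vector control 3) under the alternatives. The scaffold gene APC had no row of its own and was read as SRP19;APC, joined with its neighbour SRP19, a signal recognition particle gene, so either gene can set the value. This row stood at 2.70, 1.68 and 2.68 FPKM in KO libraries, against 4.73, 1.64 and 1.65 FPKM in vector control libraries, with a log2 fold change of -0.05 (SE 0.33). Its direction turned in 3 of 15 alternatives, up to 0.33 without vector control 1. Among the 15, no filter, a fit without the mean-variance trend and a replicate block could not turn it.

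AXIN2, the WNT-induced scaffold, was read in the row CEP112;AXIN2, joined with the centrosomal gene CEP112. The row stood at 0.94, 1.29 and 1.56 FPKM in KO libraries, against 0.92, 0.69 and 0.72 FPKM in vector control libraries. Each KO library was above each vector control library, KO 1 by 0.02 FPKM. AXIN2 and CEP112 cannot be separated in this row, which lay under the filter for testing (at least 1 FPKM in at least 3 libraries) and whose log2 difference of means was 0.34.

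Among the transcription factors, TCF7L2 stood at 1.15, 1.64 and 2.25 FPKM in KO 1 to 3, against 1.64, 0.89 and 0.75 FPKM in vector control 1 to 3. The groups overlapped, with KO 2 and vector control 1 at the same value. The log2 fold change of TCF7L2 was 0.36 (SE 0.22), and 0.54 without vector control 1. LEF1 was listed at 0, 0 and 0.07 FPKM in KO libraries and at 0.08, 0 and 0.13 FPKM in vector control libraries, so a change could not be seen there. Its relatives TCF7 and TCF7L1 reached at most 0.98 and 2.99 FPKM.

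Of the 10 members, 7 passed the filter and 1, DKK1, was called by limma at an adjusted p below 0.05, where 1.35% of all 9624 tested genes were called and 0.842% were called as lower in KO libraries. The call of DKK1 held in 14 of the 16 alternative fits and was lost without KO 3 and with replicate number as a block. Since this contrast chose DKK1, nothing is read from these counts. DKK1 reached 1 FPKM in 4 libraries, among them all 3 vector controls, and so passed the filter mainly through the group in which it was high. The other 6 tested members were not called, 0 of them had an unadjusted p below 0.05, against 17.5% of all tested genes, and robust limma with array weights called 3 of them, against 41.8% of all. The groups did not overlap in 2 of the 7, DKK1 and LRP6, where 23.8% of all tested genes had groups that did not overlap, 8.35% with KO libraries lower and 15.4% with KO libraries higher. The median log2 fold change of the 7 was -0.05, beside 0.08 for all tested genes.

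In order of mean FPKM over the 6 libraries, the members ran CTNNB1 (25.3), DKK1 (11.1), LRP5 (5.01), LRP6 (4.61), AXIN1 (2.78), the APC row (2.51), TCF7L2 (1.39), the AXIN2 row (1.02), LEF1 (0.0467) and DKK3 (0.0433). The place of DKK1 depended on the group. In vector control libraries its range overlapped that of CTNNB1, and in KO libraries it overlapped those of the APC row, TCF7L2 and the AXIN2 row. Among the other members, neighbours in this order overlapped across the 6 libraries, except CTNNB1 with LRP5 and the AXIN2 row with LEF1.

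Within the groups, several members divided the libraries in a shared way. DKK1, CTNNB1, TCF7L2 and the AXIN2 row were higher in vector control 1 than in vector control 2 and 3, and higher in both KO 2 and KO 3 than in KO 1. LRP5 showed the opposite in both groups. AXIN1 was lower in vector control 1 than in the other vector controls, but the KO libraries did not follow. With this division fitted as a term beside the groups, the log2 fold change of DKK1 was -3.94 and the term itself was 0.99 for DKK1, 0.49 for TCF7L2, 0.40 for CTNNB1 and -0.58 for LRP5. None of these 4 terms was called, while 7.92% of all tested genes were called for it. The division is known only from the expression values, and no label names it.

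**Figure D2:**
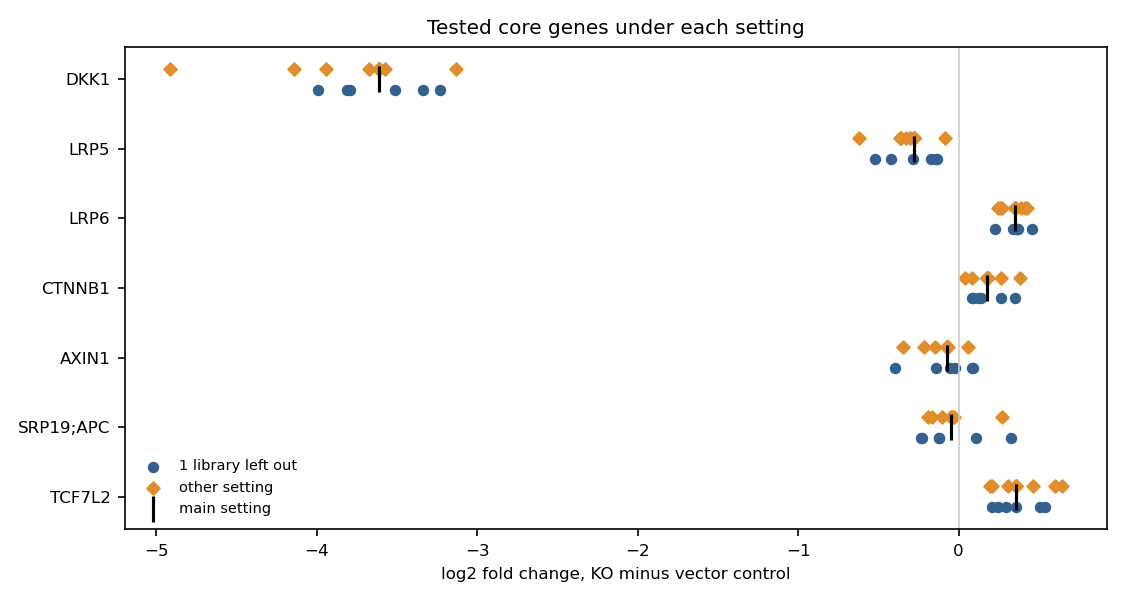
Log2 fold change, KO minus vector control, of the 7 tested members on the horizontal axis under each setting. Black ticks are the main setting, blue points leave out 1 library, and orange diamonds are other settings. DKK1 stays between -4.92 and -3.13, while AXIN1 and the APC row lie on both sides of 0.

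The rest of the pathway was read from 135 further genes in 9 groups that hold none of the 10 members. All 135 had a row, 8 only within a joined row, 64 were tested, and the others were too low. In limma 1 of the 64 was lower in KO libraries and 0 were higher, so 1.56% were called against 1.35% of all tested genes. Robust limma with array weights called 34 of the 64, against 41.8% of all tested genes. The fit without vector control 1 called 18 (9 higher and 9 lower), against 13.8% of all, and 15 had an unadjusted p below 0.05, against 17.5% of all. JUN, WLS, ID2, SOX9, FZD6, DVL1, ROR1, ROR2 and CSTF2T were among those called without vector control 1. ROR2 met the filter only through the KO libraries and PYGO1 only through the vector control libraries, where each was high. Nothing is read from the part of these genes in the counts given here. The median log2 fold change of the 64 was -0.01 beside 0.08 for all tested genes, and 32 lay below 0. The groups did not overlap in 17 of the 64, or 26.6%, against 23.8% of all. The calls over all genes numbered 130, of which 49 were higher and 81 lower in KO libraries, and they divided into 31 and 99 after quantile normalization.

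The single call was JUN, which encodes an AP-1 subunit and was listed as a beta-catenin/TCF target. JUN stood at 11.94, 16.27 and 13.78 FPKM in KO libraries, against 29.44, 31.57 and 28.21 FPKM in vector control libraries. The groups were well apart, and JUN fell by 1.04 on the log2 scale (SE 0.16, limma adjusted p = 0.0303). The call held in 10 of 16 alternative fits and was lost in the fits without KO 1, KO 2, KO 3, vector control 2 or vector control 3 and in the fit with replicate number as a block (adjusted p over the alternatives from 0.00142 to 0.191). Other inputs than WNT, such as the JNK and ERK pathways, also control JUN.

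Of the 11 tested target genes, 1 fell, 0 rose and 10 did not pass, with a median log2 fold change of -0.37. An unadjusted p below 0.05 was found for 5 of the 11, against 17.5% of all tested genes. Robust limma called 7 (3 higher and 4 lower), against 41.8% of all, and limma itself called 1.35% of all. MYC, the growth-promoting transcription factor gene and a classical target, is named after its values were seen. It stood at 12.98, 14.23 and 6.34 FPKM in KO libraries, against 18.20, 39.54 and 17.44 FPKM in vector control libraries. The groups did not overlap in MYC, and its log2 fold change of -1.07 (SE 0.39) did not pass (limma adjusted p = 0.234). ID2, an inhibitor of basic helix-loop-helix factors, was the most abundant. It stood at 38.92, 68.69 and 72.59 FPKM in KO libraries, against 19.83, 23.02 and 24.76 FPKM in vector control libraries. All KO libraries were above all vector controls, with a log2 fold change of 1.33 (SE 0.25, limma adjusted p = 0.0609). The cell surface receptor gene CD44 averaged 19.2 ± 6.51 FPKM in KO cells and 32.2 ± 11.5 FPKM in vector control cells (SD, n = 3 each), a log2 fold change of -0.70 with overlapping groups. CD44 did not pass in limma (adjusted p = 0.344), but it was -1.09 and passed in robust limma (adjusted p = 0.00896). SOX9, a transcription factor gene of pancreatic progenitor and ductal cells, stood at 34.35, 33.20 and 32.52 FPKM in KO libraries, against 31.22, 7.75 and 8.26 FPKM in vector control libraries. Vector control 1 was thus close to the KO libraries in SOX9 and far from its own group, and the log2 fold change of 1.32 did not pass (limma adjusted p = 0.229). Without vector control 1 it was 1.93 and passed (limma adjusted p over the alternatives from 0.00121 to 0.547). Other listed targets were at or near 0: SP5 and ASCL2 were listed at 0 in every library, APCDD1 reached 0.08 FPKM and TNFRSF19 0.02 FPKM.

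**Figure D3:**
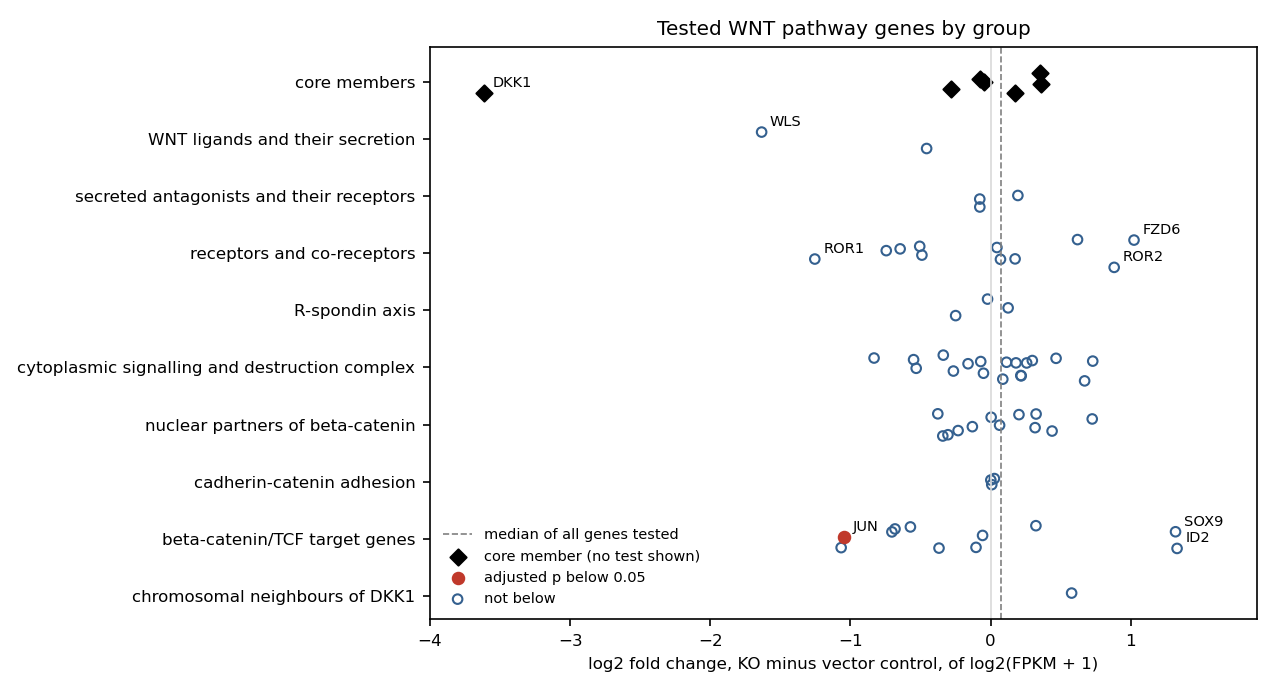
Log2 fold change, KO minus vector control, of log2(FPKM + 1) for each tested gene, with 1 row per pathway group. Black diamonds are the 7 tested core members, a filled red circle passed the limma test, open circles did not, and the dashed line is the median of all tested genes at 0.08. DKK1 at -3.61 lies far to the left of the other core members and of every listed pathway gene.

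WNT ligands were scarce in both groups. None of the 19 WNT genes was tested, 8 were listed at 0 in every library, and the highest value of any was 1.23 FPKM, of WNT2B in KO 3. The 2 genes for making and releasing ligands were tested. WLS, the carrier that takes WNT proteins to the cell surface, stood at 3.61, 1.04 and 1.57 FPKM in KO libraries, against 8.20, 7.81 and 7.91 FPKM in vector control libraries. Each KO library had less than the lowest vector control, and the vector controls hardly varied. The log2 fold change of WLS was -1.63 (SE 0.29), just above the threshold with a limma adjusted p of 0.0515. It passed in 5 of the 16 alternative fits, which were median scaling, quantile normalization, robust limma with array weights and the fits without KO 1 and without vector control 1 (adjusted p over the alternatives from 9.14e-04 to 0.214). PORCN, the acyltransferase that lipid-modifies WNT proteins, averaged 4.44 ± 1.94 FPKM in KO cells and 6.42 ± 2.27 FPKM in vector control cells (SD, n = 3 each) with overlapping groups. Its log2 fold change of -0.46 did not pass in limma (adjusted p = 0.513). In robust limma, which called 41.8% of all tested genes, it was -0.86 and passed (adjusted p = 0.0109).

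DKK1 also binds the Kremen receptors, and CKAP4 has been described as a further DKK1 receptor in pancreatic cancer cells. CKAP4 averaged 22.0 ± 3.79 FPKM in KO cells and 19.0 ± 2.32 FPKM in vector control cells (SD, n = 3 each), a log2 fold change of 0.19 (SE 0.18). KREMEN1 averaged 3.44 ± 1.30 FPKM in KO cells and 3.72 ± 1.41 FPKM in vector control cells (SD, n = 3 each), and KREMEN2 had a log2 fold change of -0.08. None of the 3 passed in limma, 0 had an unadjusted p below 0.05, and robust limma called 1. Of all tested genes, 1.35%, 17.5% and 41.8% did so. The other 14 genes of this group, secreted antagonists such as SFRP1, WIF1 and SOST, lay under the filter and reached at most 1 FPKM. Among the antagonists listed, DKK1 was thus the single one measured above 1 FPKM, and in KO cells only in KO 2.

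Of 15 further receptor genes 11 were tested and 0 called in limma, with 4 at an unadjusted p below 0.05 and 7 called by robust limma. Over all tested genes these shares were 1.35%, 17.5% and 41.8%. RYK, a receptor with an inactive kinase domain, was the most abundant and averaged 11.7 ± 0.167 FPKM in KO cells and 11.4 ± 2.51 FPKM in vector control cells (SD, n = 3 each). FZD4 stood at 15.97, 3.41 and 3.40 FPKM in KO libraries, against 12.40, 10.56 and 9 FPKM in vector control libraries. KO 1 was the highest of the 6 and the other KO libraries the lowest. The log2 fold change of FZD4 was -0.74 and did not pass (limma adjusted p = 0.489). It was -1.39 and passed without KO 1, and it was -1.14 and passed in robust limma (adjusted p over the alternatives from 0.0196 to 0.815). FZD6 stood at 10.26, 9.71 and 11.97 FPKM in KO libraries, against 7.70, 3.85 and 3.42 FPKM in vector control libraries, a log2 fold change of 1.02 (SE 0.27, limma adjusted p = 0.143). In FZD6 too vector control 1 was the vector control nearest to the KO libraries, and without it the log2 fold change was 1.33 and passed (limma adjusted p over the alternatives from 0.00129 to 0.409).

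The ROR receptors, which bind WNT5A and act outside beta-catenin signalling, differed in opposite directions without passing the test. They and FZD7 are named here after their values were seen. ROR1 stood at 3.51, 1.86 and 1.45 FPKM in KO libraries, against 6.85, 7.23 and 5.64 FPKM in vector control libraries, a log2 fold change of -1.25 (SE 0.25, limma adjusted p = 0.0668). ROR2 stood at 1.41, 2.08 and 2.46 FPKM in KO libraries, against 0.51, 0.63 and 0.67 FPKM in vector control libraries, a log2 fold change of 0.88 (SE 0.17). ROR2 met the filter only through the KO libraries, where it was high. For that reason nothing is read from its test (limma adjusted p = 0.0609) or from its part in the receptor counts. The groups did not overlap in either gene. WNT5A itself reached at most 0.10 FPKM. FZD7 was listed at 0 in KO 1 and vector control 2 but lay between 5.71 and 7.81 FPKM in the other libraries, and an exact 0 in this table can be an unmeasured value, since all 13 mitochondrially encoded rows were at 0.

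The cytoplasmic genes gave no call in limma over the 6 libraries. Since 1.35% of all tested genes were called, nothing is read from that count. Of 26 cytoplasmic genes 18 were tested and 0 called in limma, with 2 at an unadjusted p below 0.05 and 7 called by robust limma. The unadjusted threshold was met by 17.5% of all tested genes, and robust limma called 41.8% of them. The kinase gene CSNK1A1, whose product primes beta-catenin for degradation, averaged 16.2 ± 1.61 FPKM in KO cells and 15.3 ± 2.30 FPKM in vector control cells (SD, n = 3 each). DVL1, which relays the receptor signal, averaged 9.26 ± 1.39 and CSNK1D 11.3 ± 1.34 FPKM in KO cells, against 14.4 ± 4.97 and 9.85 ± 0.373 FPKM in vector control cells. DVL1 showed the split inside the vector controls, with 8.68 FPKM in vector control 1 against 16.50 and 17.90 FPKM in vector control 2 and 3. Its log2 fold change of -0.53 did not pass in limma, but it was -0.83 and passed without vector control 1, and it was -0.87 and passed in robust limma (adjusted p over the alternatives from 0.00307 to 0.721).

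Of 14 nuclear partner genes 12 were tested and 0 called in limma, with 3 at an unadjusted p below 0.05 and 8 called by robust limma. PYGO1, among these 3, met the filter only through the vector control libraries, where it was high, so nothing is read from its part in these counts. For all tested genes the same counts came to 1.35%, 17.5% and 41.8%. The 3 highest were joined rows, SHC1;PYGO2, CLSTN1;CTNNBIP1 and CBY1;TOMM22, with log2 fold changes of 0.20, 0.32 and 0.06 that cannot be assigned to 1 gene. Of the R-spondin axis LGR4, ZNRF3 and the row SUPT4H1;RNF43 were tested and 0 called in limma, with 0 at an unadjusted p below 0.05 and 1 called by robust limma. Their log2 fold changes were -0.25, 0.12 and -0.02. LGR5, a receptor gene and WNT target, reached at most 0.06 FPKM.

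Beta-catenin also joins cadherins to the cytoskeleton. Of this adhesion group CTNNA1, JUP and the row CTNND1;TMX2;SELENOH were tested and 0 called in limma, with 0 at an unadjusted p below 0.05 and 0 called by robust limma. Among all tested genes 1.35%, 17.5% and 41.8% met these criteria. CTNNA1, the alpha-catenin gene, averaged 34.6 ± 2.70 FPKM in KO cells and 34.6 ± 3.68 FPKM in vector control cells (SD, n = 3 each). The cadherin genes CDH1, CDH2 and CDH3 reached at most 0.02, 0.06 and 0.10 FPKM.

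Of the 3 listed genes that neighbour DKK1 on its chromosome, 1 was tested and 0 called in limma, with 0 at an unadjusted p below 0.05 and 1 called by robust limma. The matching shares of all tested genes were 1.35%, 17.5% and 41.8%. CSTF2T, a polyadenylation factor gene, stood at 4.81, 6.29 and 6.41 FPKM in KO libraries, against 6.27, 2.16 and 3.11 FPKM in vector control libraries, with overlapping groups and a log2 fold change of 0.58 (SE 0.31, limma adjusted p = 0.377). Without vector control 1 the log2 fold change of CSTF2T was 0.92 and passed (limma adjusted p over the alternatives from 0.00519 to 0.743). The kinase gene PRKG1 reached at most 0.04 FPKM and the lectin gene MBL2 was listed at 0, so these could not be compared.

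The 5 tested genes whose profile lay nearest to that of DKK1 were CXCL8, TGM2, SCG2, SLC6A12 and PDLIM1. Likeness was measured as the Euclidean distance between log2(FPKM + 1) profiles over the 6 libraries, each centred on its own mean. The distance to DKK1 was 1.18 for CXCL8 and ran from 1.73 for TGM2 to 1.77 for PDLIM1, where the median tested gene lay at 4.74. CXCL8, a neutrophil chemokine, stood at 3.88, 4.58 and 4.72 FPKM in KO libraries, against 67.99, 31.16 and 32.59 FPKM in vector control libraries. TGM2, a protein cross-linking transglutaminase, stood at 4.82, 10.62 and 10.51 FPKM in KO libraries, against 63.42, 37.83 and 41.08 FPKM in vector control libraries. In both, as in DKK1, vector control 1 was the highest of the 6 libraries and KO 1 the lowest. SCG2, SLC6A12 and PDLIM1 had nearly level vector controls, at 17.54 to 20.24, 6.98 to 8.34 and 21.27 to 24.37 FPKM. In KO libraries they reached at most 0.49, 0.36 and 2.85 FPKM. SCG2 and SLC6A12 thus met the filter only through the vector control libraries, where they were high. Since DKK1 was chosen for its difference between the groups, any gene with a similar difference lies near it in this measure.

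**Figure D4:**
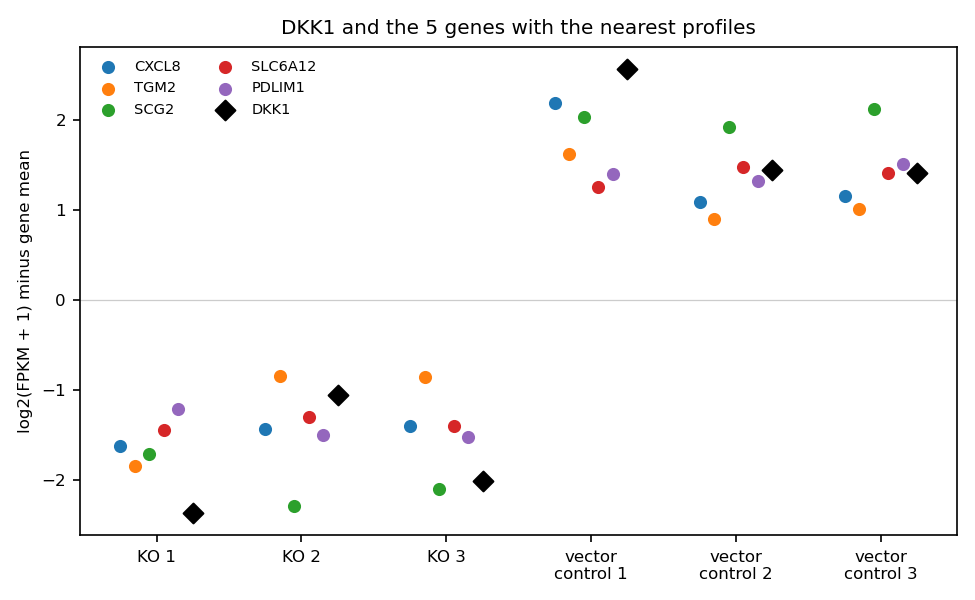
Level of DKK1 (black diamonds) and of the 5 genes with the nearest profiles (coloured circles) in each of the 6 libraries, as log2(FPKM + 1) minus the gene's own mean over the libraries. All 6 genes lie below 0 in KO libraries and above 0 in vector control libraries, and DKK1, CXCL8 and TGM2 are highest in vector control 1.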

How the data were processed

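Total RNA of 3 LINC00901 KO and 3 vector control libraries of MIA PaCa-2 cells was analysed from 1 table of FPKM deposited by the authors. Libraries were placed in groups by their titles. The submitters' processing notes name HISAT2, cutadapt and FastQC with the build hg19. Tool versions, the program behind FPKM, the gene annotation and strand handling were not given in the sources used here, so antisense reads may count towards a gene. FPKM carries no depth, and a search for whole-read steps among low values of short genes found none (best concentration 0.468, where exact multiples give 1). Precision is set by the number of libraries.

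limma 3.58.1 in R 4.3.3 (lmFit, eBayes with a mean-variance trend) was fitted to log2(FPKM + 1), KO minus vector control, for the 9624 rows that reached 1 FPKM in 3 or more libraries. The test was two-sided, with Benjamini-Hochberg adjustment over all tested rows and a call below 0.05. Fold changes on this scale understate those of low genes. The fit was checked on simulated data. A joined row (symbols separated by semicolons) was kept as 1 unit.

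The members, the 9 pathway groups and the 6 marker groups (epithelial, fibroblast, leukocyte, endothelial, pancreatic acinar and endocrine) were chosen with earlier results of these data known. Named genes were all members, each group's called genes and up to 3 further tested genes with the highest mean FPKM, the 5 tested genes nearest to DKK1, the listed neighbours of DKK1 and the epithelial markers. Genes named as low, and ROR1, ROR2, FZD7, MYC, PYGO1, LYZ, COL1A2 and COL3A1, lie outside this rule and were chosen after their values were seen. Alternatives were pseudocounts of 0.1 and 0.5, no filter, a filter at 5 FPKM, quantile normalization, median scaling, a fit without the mean-variance trend, robust limma with array weights, a replicate block, the division of the libraries as a term, and each library left out.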

Additional observations from a re-analysis of the deposited data

How the results depend on the processing

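Over the 16 alternatives, the log2 fold change of DKK1 stayed below 0. It was within 1 SD (0.67, pooled within the groups on the log2 scale) of -3.61 in 15, and was -4.92 with a pseudocount of 0.1. No filter, a filter at 5 FPKM, a fit without the mean-variance trend and the replicate block could not move this value. Their agreement therefore says nothing of its stability. Leaving out single libraries gave -3.99 (without KO 2) to -3.23 (without vector control 1). The calls over all genes numbered 130, and 241 without a filter, 59 with a filter at 5 FPKM, 240 with the division of the libraries as a term, 4020 with robust limma plus array weights, and from 25 (without KO 3) to 1329 (without vector control 1) with single libraries left out. Without KO 2 there were 29, and without vector control 2 or vector control 3 there were 39 each. The calls among the 64 pathway genes numbered 1, and 2 after median scaling, 3 after quantile normalization, 34 with robust limma plus array weights, and from 0 (without KO 2, KO 3, vector control 2 or vector control 3) to 18 (without vector control 1), with 5 without KO 1. The cause of these changes was not tested.

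Replicate numbers are shared by the groups, and the labels do not say whether they pair the libraries. The deviations of same-numbered libraries from their group means correlated at -0.37, -0.15 and -0.26. These values show no likeness by number, but they cannot exclude pairing, because the division of the libraries also shapes them. With the replicate block 7 genes were called over all genes and 0 among the pathway genes. DKK1 was not among these 7, and its log2 fold change of -3.61 could not move under this block.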
